A study of Mus musculus with 30 samples.

Results

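In mouse embryonic stem (ES) cells without thymine DNA glycosylase, 45263 regions of 5-formylcytosine (5fC) stood on DNA that already carried a 5-hydroxymethylcytosine (5hmC) region in cells with the enzyme, while those cells had neither 5fC nor the coactivator p300 there. They made up 37.7% (95% interval 37.4 to 38.0) of the 120051 5fC regions of Tdg -/- ES cells on chromosomes 1 to 19 and X, and 61.4% (61.1 to 61.8) of the 73702 that had no counterpart in Tdg fl/fl ES cells. They were selected on 4 of the 8 deposited lists: a region of the Tdg -/- 5fC list was taken if it shared no base with a fl/fl 5fC region, none with a fl/fl p300 region, and at least 1 bp with a fl/fl 5hmC region. They are called gained-on-5hmC regions here, and members in the plots. "Gained" says only that a region was in the Tdg -/- list and not in the fl/fl list. The lists not used for the selection are those of Tdg -/- 5hmC, Tdg -/- p300, and 5hmC and 5fC of embryoid bodies (EB), and these carry the results.

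TET dioxygenases oxidise 5-methylcytosine stepwise to 5hmC, 5fC and 5-carboxylcytosine. Thymine DNA glycosylase, the product of Tdg, excises the last of these bases together with 5fC, and base excision repair then restores an unmodified cytosine. In ES cells 5hmC is abundant over enhancers and gene bodies, 5fC is rare, and p300 is a histone acetyltransferase that binds active and poised enhancers.

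Tdg -/- ES cells, in which Tdg was deleted, and Tdg fl/fl EB were each set against Tdg fl/fl ES cells, which carry floxed alleles and keep the enzyme. All cells were of the strain C57BL/6-ICR. EB, clumps of ES cells that have started to differentiate, were taken at day 5, after growth in medium that lacked LIF and the inhibitors CHIR99021 and PD0325901. Which part of Tdg was deleted, how the Tdg -/- cells were derived and whether they are a single clone are not given in the sources used here. For 5fC and 5hmC, DNA fragments with the base were chemically tagged, pulled out and sequenced from 2 libraries per group, and p300 came from 3 chromatin immunoprecipitation libraries per ES genotype. The authors called each list on its libraries together, so every group has 1 list, the spread between replicates is unknown, and no difference below was tested against it. Intervals are Wilson 95% intervals and cover the counting of regions only.

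The list of 5fC held 120052 regions over 111 Mb in Tdg -/- ES cells and 57018 over 34.6 Mb in fl/fl ES cells. The sequencing depth behind the lists is unknown, and the length of a list depends on it. Each region carries the authors' score, the negative log10 of a p-value times 10. It was used to rank or divide regions within a list, apart from alternatives at the end that set a common minimum across lists. Scores began at 50 in 7 lists and at 60.92 in the list of fl/fl 5fC, and 6789 gained-on-5hmC regions (15%) scored below 60.92. Chromosome 11 stood apart from the other autosomes, as described below. All positions are in mm9 as deposited. The labels of the EB samples name no build, and their lists were read in mm9 too.

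Tdg RNA was 9.48 FPKM (fragments scaled to transcript length and library size) in Tdg -/- cells and 22.1 FPKM in fl/fl cells, a log2 change of -1.14 with 1 FPKM added to each value. Reads from parts of Tdg outside the deletion may enter this value. Of the enzymes that make 5hmC and 5fC, Tet1 was at 76.9 FPKM in Tdg -/- cells and 66.6 FPKM in fl/fl cells. Tet2 was at 43.8 FPKM in Tdg -/- cells and 46.9 FPKM in fl/fl cells, and Tet3 at 1.59 FPKM in Tdg -/- cells and 1.18 FPKM in fl/fl cells. A list of 21 genes held those of cytosine modification and its repair, with the coactivator genes Ep300 and Crebbp added. Uhrf1 had no FPKM value, and the other 20 were measured. None of the 20 was at least 2-fold higher in Tdg -/- cells and 1, Tdg, was at least 2-fold lower. Of all 12053 measured genes, 0.357% changed 2-fold in either direction. Both tables hold 1 value per gene and genotype, so no error can be given. The ES cell markers in the tables, 7 of 8, lay between 67.4 and 4691 FPKM in Tdg -/- cells and between 70.02 and 4571 FPKM in fl/fl cells. All 4 mesoderm markers were below 1 FPKM in both, and of 5 fibroblast markers only Thy1 was above it (1.72 FPKM in Tdg -/- and 2.37 FPKM in fl/fl cells), with Col1a1, Col1a2, Col3a1 and Dcn below 1 FPKM in both. Of 5 endoderm markers Gata4 was above 1 FPKM, at 1.31 in Tdg -/- and 1.27 in fl/fl cells. Of 4 neuroectoderm markers Tubb3, at 18.7 FPKM in Tdg -/- and 20.2 FPKM in fl/fl cells, and Sox1, at 1.25 FPKM in Tdg -/- and 0.972 FPKM in fl/fl cells, reached 1 FPKM in at least 1 genotype.

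The gained-on-5hmC regions were small and of modest score. Their median width was 739 bp (quartiles 606 and 958 bp) and their median score 100.9 (quartiles 69.8 and 162). The 38896 Tdg -/- 5fC regions that overlapped fl/fl 5fC and fl/fl 5hmC but no fl/fl p300, called kept-on-5hmC regions, had a median of 914 bp and a score of 228. Gained regions on both fl/fl 5hmC and fl/fl p300, 4693 in number, had 925 bp and 143.5. The 20123 gained regions with neither fl/fl 5hmC nor p300, called gained-off-5hmC regions, had 625 bp and 72.9. These widths and scores come from the list used for the selection and are descriptions.

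Few regions lay close to the limits of the selection. Of the gained-on-5hmC regions, 390 had under 100 bp on fl/fl 5hmC, 518 lay under 100 bp from a fl/fl 5fC region and 415 under 100 bp from a fl/fl p300 region. Just inside were chr10:75324095-75324611 (score 72.26) and chr14:25030245-25030831 (score 92.68), each with 1 bp on fl/fl 5hmC. Just outside were chr1:135260632-135261494 (score 72.64) and chr10:110511039-110511487 (score 84.23), which met a fl/fl 5hmC region end to end (and would share 1 bp with it if starts count from 1), and chr12:113474597-113475222 (score 52.53), which shared 1 bp with fl/fl 5fC. Left out within 100 bp of a limit were 661 regions beside fl/fl 5hmC, 162 with a short overlap with fl/fl 5fC and 320 with a short overlap with fl/fl p300.

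The 10 gained-on-5hmC regions with the highest scores show what the class looks like at its strong end. At chr2:165205035-165207435, 2400 bp wide with a score of 3143, the fl/fl 5hmC region spanned chr2:165204843-165207472 and had a score of 1915, and Tdg -/- 5hmC, EB 5hmC and EB 5fC were all listed there. The nearest fl/fl 5fC region was 5367 bp away and the nearest fl/fl p300 region 13527 bp. The next 2, chr1:138554772-138558729 and chr13:96373528-96375585, both scored 3100 and carried the same 3 marks. All 10 overlapped Tdg -/- 5hmC, 9 overlapped EB 5hmC, 8 EB 5fC and 1 Tdg -/- p300, at chr19:6247457-6248572. The 2 of the 10 without EB 5fC were chr5:143535153-143536233 and chr19:53078953-53081339, and the second of these also lacked EB 5hmC. Regions prone to false signal were not removed, and very high scores may include some.

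Nearly all gained-on-5hmC regions were still hydroxymethylated in Tdg -/- cells. A Tdg -/- 5hmC region lay at 43386 of the 45263 (95.9%, 95.7 to 96.0), where 89.0% of all Tdg -/- 5fC regions had one. The share was 98.5% in kept-on-5hmC regions, 91.9% in gained regions on p300 and 62.5% (61.9 to 63.2) in gained-off-5hmC regions. The selection required fl/fl 5hmC, most of which was also listed in Tdg -/- cells, so a high share was largely built in for every class on 5hmC. On single chromosomes the share of gained-on-5hmC regions lay between 89.6% (X) and 99.55% (11). The 1877 regions without Tdg -/- 5hmC had a median score of 72.0, against 103 for those with it. The strongest of them was chr19:44911764-44913337 with a score of 499, which carried Tdg -/- p300, EB 5hmC and EB 5fC.

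p300 was listed at few of these regions in Tdg -/- cells. A Tdg -/- p300 region lay at 3043 (6.72%, 6.496 to 6.96), where 14.8% of all Tdg -/- 5fC regions had one. That lower share was built in, since the selection left out every region with fl/fl p300. Among classes with the same exclusion, the share was 9.28% (8.99 to 9.57) in kept-on-5hmC and 8.17% (7.80 to 8.56) in gained-off-5hmC regions, a difference of -2.55 percentage points to kept-on-5hmC and -1.45 to gained-off-5hmC regions, each with this sign on 19 of 20 chromosomes. The difference to kept-on-5hmC regions was -0.0249 points when those were weighted to the same spread of score and width. With the same weighting the difference to gained-off-5hmC regions was -3.18 points, and after merging of regions closer than 1 kb it was -0.349. Gained regions on fl/fl p300 kept a Tdg -/- p300 region in 69.7% of cases. Seen from p300, 3015 Tdg -/- p300 regions lay on a gained-on-5hmC region, 6.96% of all 43345. Of those 3015, 2785 (92.4%) overlapped no fl/fl p300 region, against 42.2% of all Tdg -/- p300 regions. The selection left out 5fC with fl/fl p300, so the high share was nearly fixed by it. The remaining 230 were wide enough to reach a fl/fl p300 region next to the 5fC. The 2785 had a median score of 77.7, and all 18311 Tdg -/- p300 regions without fl/fl overlap had a median of 78.0. The gained-on-5hmC regions with Tdg -/- p300 scored higher in 5fC (median 127) than those without it (99.5).

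EB shared the hydroxymethylation of these regions about as often as that of other 5fC regions. EB 5hmC lay at 25437 (56.2%, 55.7 to 56.65), where 56.4% of all Tdg -/- 5fC regions had it, a share close to this background. Kept-on-5hmC regions had 61.5%, gained regions on p300 60.7% and gained-off-5hmC regions 46.0%. EB 5fC lay at 5615 gained-on-5hmC regions (12.4%, 12.1 to 12.7), where 17.1% of all Tdg -/- 5fC regions had it. It was more frequent in kept-on-5hmC regions (20.9%, 20.5 to 21.3) and in gained regions on p300 (30.45%, 29.2 to 31.8), and 11.4% (11.01 to 11.9) in gained-off-5hmC regions. The differences to kept-on-5hmC regions, -5.27 points for EB 5hmC and -8.53 points for EB 5fC, had this sign on 19 and on 20 of 20 chromosomes. They turned with the score and width of the regions. With kept-on-5hmC regions weighted to the same spread of both, gained-on-5hmC regions were 5.98 points higher in EB 5hmC and 1.79 points higher in EB 5fC.

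**Figure D1:**
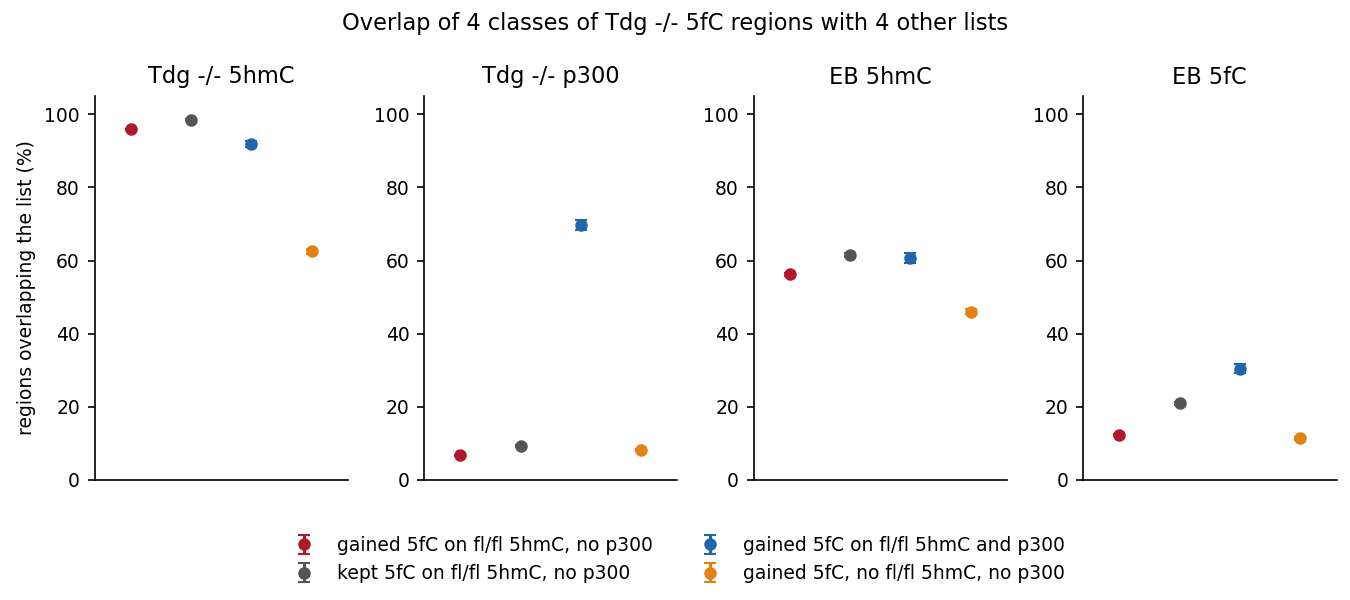
Share of regions (vertical axis, percent) that overlap each of the 4 lists not used for the selection, for gained-on-5hmC regions (red), kept-on-5hmC regions (grey), gained regions on fl/fl 5hmC and p300 (blue) and gained-off-5hmC regions (orange). Points are shares and bars Wilson 95% intervals, often smaller than the point. Red lies at 95.9% for Tdg -/- 5hmC, 6.72% for Tdg -/- p300, 56.2% for EB 5hmC and 12.4% for EB 5fC, and the high blue share of Tdg -/- p300 follows from how that class was chosen.

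Within the gained-on-5hmC regions, the other marks followed the 5fC score. Over scores of 50 to 75, 75 to 100, 100 to 150, 150 to 300 and 300 or more, EB 5fC lay at 3.91%, 6.91%, 10.6%, 21.1% and 44.0%. EB 5hmC lay at 44.3%, 51.7%, 59.8%, 67.35% and 74.8%. Tdg -/- p300 was less frequent and also increased with score, with 4.71%, 5.77%, 6.75%, 8.465% and 12.8%. Tdg -/- 5hmC was at 92.55% in the lowest and 99.8% in the highest group. Regions of higher score were also wider, with median widths of 619, 699, 768, 925 and 1328 bp, and a wider region has more bases to meet another list. How much of each increase width accounts for was not tested.

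**Figure D2:**
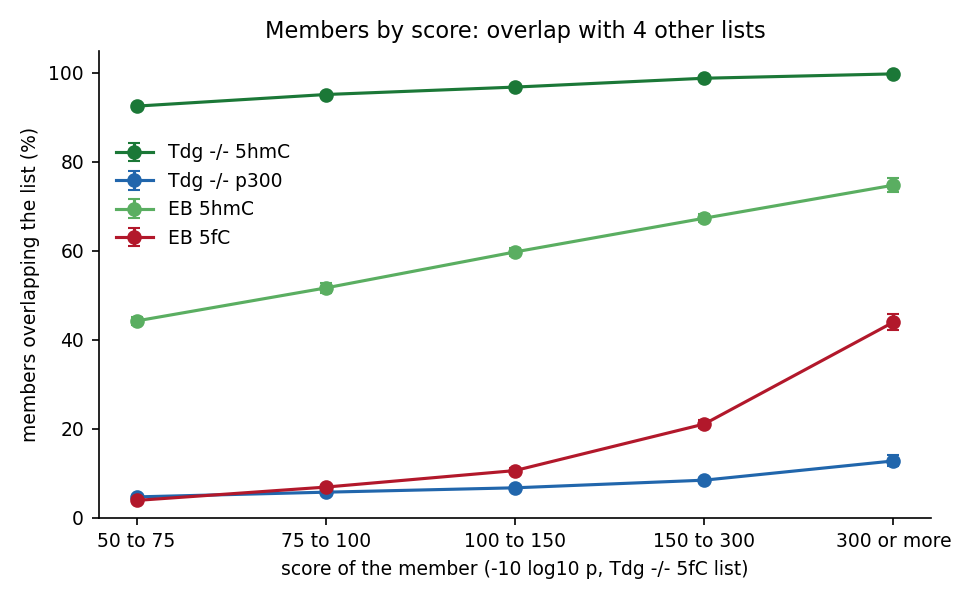
Share of gained-on-5hmC regions (vertical axis, percent) that overlap each of 4 lists, by the 5fC score of the region (horizontal axis, minus 10 times the log10 of the authors' p-value). Bars are Wilson 95% intervals. All 4 lines increase with score, and EB 5fC has the largest ratio between its ends, 44.0% at scores of 300 or more and 3.91% at scores of 50 to 75.

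The 4 marks occurred in a few main combinations. Tdg -/- 5hmC together with EB 5hmC and nothing else was found at 19084 gained-on-5hmC regions (42.2%). Tdg -/- 5hmC alone was found at 16683 (36.9%), regions whose 5hmC was listed in both ES genotypes and not in EB. A further 3962 (8.75%) carried Tdg -/- 5hmC, EB 5hmC and EB 5fC, and 460 (1.02%) carried all 4 marks. None of the 4 lists reached 923 regions (2.04%), which had a median score of 65.3 and a median width of 558 bp. The strongest of those were chr17:45350664-45350930 with a score of 236.76, chr1:120568312-120569181 with 235.69 and chr12:87791742-87792491 with 230.84.

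EB 5fC was listed more often at gained-on-5hmC regions with EB 5hmC than at those without it, though most of either kind had none. Of the 25437 with EB 5hmC, 18.0% (17.5 to 18.45) also had EB 5fC, and of the 19826 without EB 5hmC, 5.26% (4.96 to 5.58) did. Those with EB 5hmC also had a higher median 5fC score, 114.7 against 87.1, and the part of score was not tested. The 5615 with EB 5fC were the stronger and wider ones, with a median score of 181.8 and a width of 897 bp, against 94.8 and 723 bp for the rest. The regions with EB 5fC carried Tdg -/- p300 in 11.4% (10.6 to 12.3), against 6.06% (5.825 to 6.295) of the rest. Counted from EB, 5659 of 24727 EB 5fC regions (22.9%) lay on a gained-on-5hmC region, and among the 14781 EB 5fC regions without fl/fl ES 5fC 5576 (37.7%, 36.95 to 38.5) did. Both counts share the fl/fl ES 5fC list, which decided what was new in EB and what was gained in Tdg -/- cells. Gained-on-5hmC regions overlap no fl/fl ES 5fC by selection, so the second share was nearly bound to be the higher. The share of EB 5fC regions on any Tdg -/- 5fC region is not given here for comparison.

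The fl/fl 5hmC regions themselves show where 5fC was gained and where it was not. Of 140943 fl/fl 5hmC regions, 88609 overlapped neither fl/fl 5fC nor fl/fl p300. Of these, 39418 (44.5%) held at least 1 gained-on-5hmC region, 48218 (54.4%) held no Tdg -/- 5fC, and 973 held Tdg -/- 5fC of another class only. Another 4377 fl/fl 5hmC regions held a gained-on-5hmC region while also touching fl/fl 5fC or p300 elsewhere along their length. These had a median width of 2239 bp. The 5hmC regions with gained 5fC were wider and of higher score than those without 5fC, with medians of 1011 bp and 113.9 against 813 bp and 74.1.

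The share of 5hmC regions with gained 5fC increased with the strength of the 5hmC. In 10 equal classes of rising 5hmC score it was 22.1%, 24.5%, 28.1%, 33.0%, 36.5%, 42.9%, 49.05%, 57.2%, 67.7% and 83.8% (83.0 to 84.5 in the highest class). In 10 classes of width it was 21.9% in the narrowest and 74.3% in the widest. Score and width go together, with a median width of 705 bp in the lowest and 1516 bp in the highest class of score. A wider 5hmC region has more bases to meet a 5fC region, and the part of width was not tested. These shares, and the 5hmC widths and scores above, come from lists used for the selection and are descriptions. In the highest score class 7422 of 8861 5hmC regions held gained 5fC, and in the lowest 1957 of 8861.

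**Figure D3:**
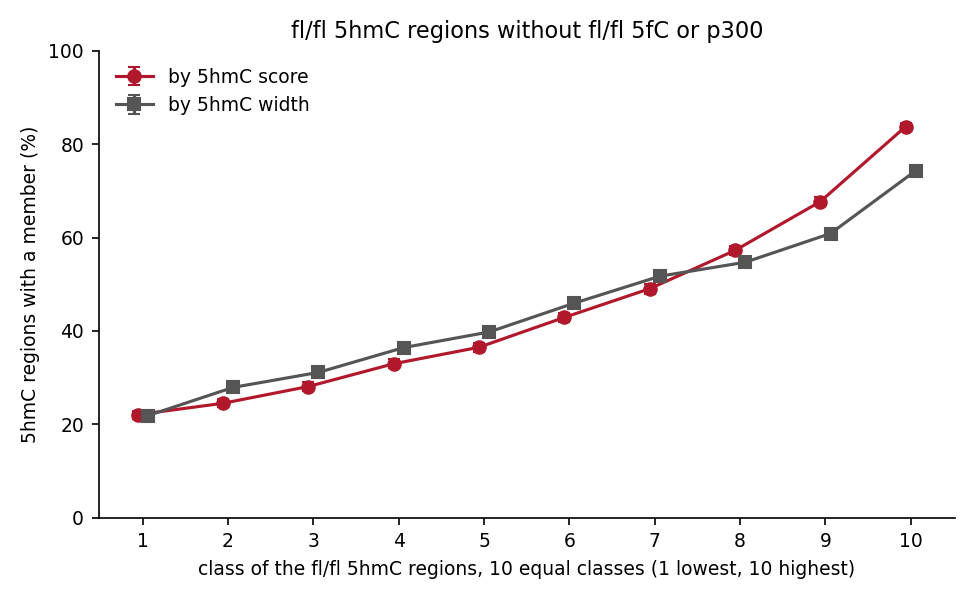
Share of fl/fl 5hmC regions with neither fl/fl 5fC nor fl/fl p300 (vertical axis, percent) that held a gained-on-5hmC region, in 10 equal classes of the 5hmC score (red circles) and of the 5hmC width (grey squares). Each class holds about 8861 regions and bars are Wilson 95% intervals. All lists shown here were used for the selection. Both lines increase at every step, to 83.8% in the highest class of score and 74.3% in the widest.

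5hmC regions with gained 5fC and those without any differed in all 4 lists the selection had not used. Tdg -/- 5hmC lay at 95.6% (95.4 to 95.8) of those with gained 5fC and at 71.1% (70.7 to 71.5) of those without 5fC. EB 5hmC lay at 58.9% (58.4 to 59.4) with gained 5fC and 25.5% (25.1 to 25.85) without 5fC, a difference of 33.45 percentage points. EB 5fC lay at 13.15% (12.8 to 13.5) with gained 5fC and 1.22% (1.12 to 1.32) without. Tdg -/- p300 lay at 7.14% (6.89 to 7.40) with gained 5fC and 3.21% (3.05 to 3.37) without. Each of the 4 shares was higher with gained 5fC on 20 of 20 chromosomes. Weighting the 5hmC regions without 5fC to the score and width of those with it left differences of 11.9 points for Tdg -/- 5hmC, 30.5 for EB 5hmC, 11.7 for EB 5fC and 3.00 for Tdg -/- p300.

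The EB differences were present at every strength of 5hmC. In the weakest of 5 equal classes of 5hmC score, EB 5hmC lay at 50.8% (49.3 to 52.35) of 5hmC regions with gained 5fC and at 20.4% (19.7 to 21.1) of those without 5fC. In the strongest class it lay at 63.4% (62.5 to 64.2) with gained 5fC and 32.3% (30.9 to 33.7) without. The weakest 5hmC regions with gained 5fC thus had EB 5hmC more often than the strongest ones without 5fC. For EB 5fC the weakest class had 11.2% with gained 5fC and 1.18% without, and the strongest 16.3% with and 1.51% without. The shares of Tdg -/- 5hmC lay closer together where 5hmC was strong, at 86.1% with gained 5fC and 54.1% without in the weakest class, and at 99.6% with and 96.3% without in the strongest. In 5 classes of width, too, EB 5hmC was more frequent with gained 5fC in all 5, with 53.0% against 23.5% in the widest.

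**Figure D4:**
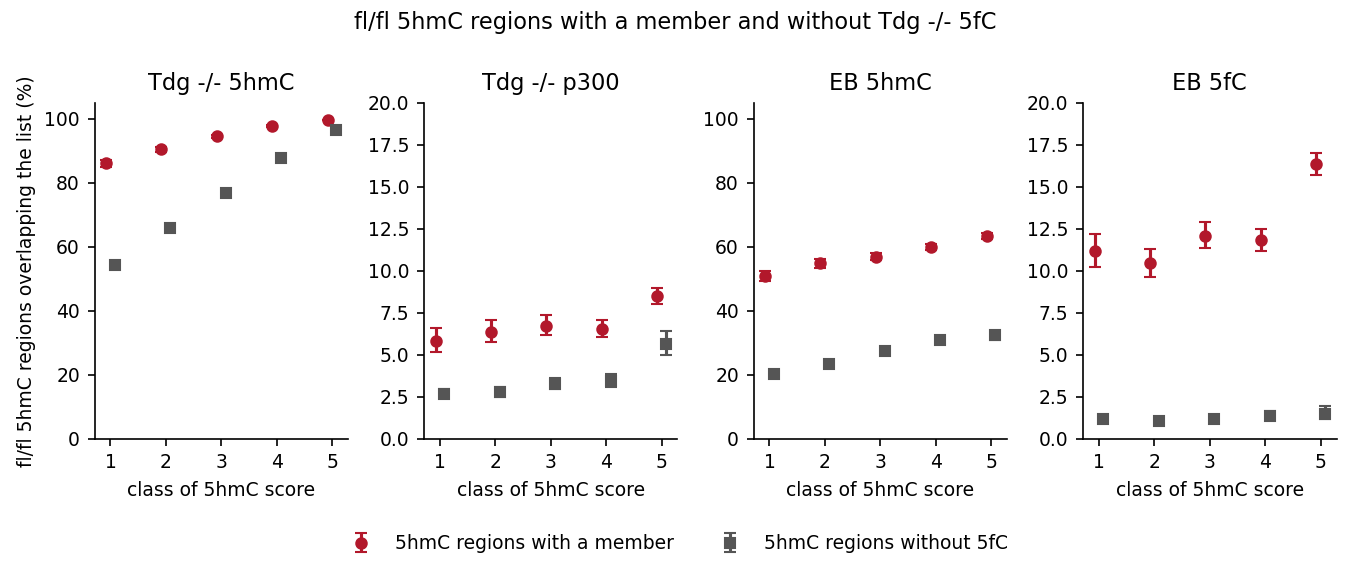
Share of fl/fl 5hmC regions (vertical axis, percent; the scale ends at 20 for Tdg -/- p300 and EB 5fC) that overlap each of 4 lists, in 5 equal classes of the fl/fl 5hmC score, for 5hmC regions with a gained-on-5hmC region (red circles) and those without Tdg -/- 5fC (grey squares). Bars are Wilson 95% intervals. Red lies above grey in every class of every list, for example at 50.8% against 20.4% for EB 5hmC in the weakest class.

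Widths were compared between genotypes where a fl/fl 5hmC region met exactly 1 Tdg -/- 5hmC region, and their ratio differed little with gained 5fC. Such regions were 93.06% of the 5hmC regions with gained 5fC and 69.98% of those without 5fC, so the compared sets were selected unequally. Whether the Tdg -/- region also met other fl/fl 5hmC regions was not checked, and a wide one may enter more than once. The Tdg -/- 5hmC region was a median of 1.14 times as wide as the fl/fl one where 5fC was gained, and 1.12 times as wide where there was no 5fC. It was wider than the fl/fl region in 76.65% of cases with gained 5fC and 71.9% without.

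Most gained 5fC lay within the bounds of its 5hmC region. Of the gained-on-5hmC regions, 59.6% lay wholly inside fl/fl 5hmC, and 98.1% lay on a single 5hmC region. For those, the distance between the centres of the 5fC and 5hmC regions was a median of 0.216 of the distance from the 5hmC centre to its edge. It was under 0.5 of that distance for 81.3%, and 2.47% had their centre outside the 5hmC region. A region that fills most of its 5hmC region cannot have its centre far from the middle, and no value expected from widths alone was computed, so no central position is read from these shares. The wider kept-on-5hmC regions had a median of 0.179, with 0.641% of centres outside. A 5hmC region with gained 5fC nearly always held 1 such region (41600 of all 43795, 94.99%), while 2070 held 2, 114 held 3 and 11 held 4. The number went with size, with median 5hmC widths of 1039, 1962, 3192 and 4807 bp. These counts include the 4377 wider 5hmC regions that also touched fl/fl 5fC or p300. Among the 11, those with the highest 5hmC scores were chr17:47301372-47307894 with 1343.84, chr2:164708004-164712870 with 1134.68 and chr6:100381038-100386184 with 754.72. The regions on chromosomes 17 and 6 also touched fl/fl 5fC, and that on chromosome 6 fl/fl p300 too.

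Of the gained-on-5hmC regions, 49.5% lay within 5 kb of 5fC that fl/fl cells already had. All distances here, and the shares by distance, come from lists used for the selection and are descriptions. No expected distance was computed. The nearest fl/fl 5fC region was a median of 5087 bp away and within 1 kb for 16.9%, and the nearest fl/fl p300 region was 13533 bp away. For gained-off-5hmC regions these medians were 8200 and 15229 bp. The nearest other gained-on-5hmC region was 5685 bp away, and within 1 kb for 18.55%. 5hmC regions with gained 5fC were a median of 5916 bp from fl/fl 5fC, and those without 5fC 7438 bp. The share of 5hmC regions with gained 5fC was 46.2% within 1 kb of fl/fl 5fC, 48.4% at 1 to 2 kb, 47.0% at 2 to 5 kb, 45.5% at 5 to 10 kb, 44.0% at 10 to 20 kb, 40.02% at 20 to 50 kb, 38.5% at 50 to 100 kb and 37.8% beyond. The 5hmC score moved with it, with a median of 95.15 within 1 kb and 76.4 beyond 100 kb, and its part in this gradient was not tested.

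Chromosome 11 stood apart. There, 2974 of 4023 fl/fl 5hmC regions without fl/fl 5fC or p300 held a gained-on-5hmC region, a share of 73.9% (72.55 to 75.3). On the other 18 autosomes the share lay between 39.1% (chromosome 3) and 45.95% (chromosome 7), and on X, with 357 such 5hmC regions, it was 51.5% (46.4 to 56.7). Gained-on-5hmC regions of chromosome 11 had a median score of 143, against 98.6 elsewhere. They overlapped Tdg -/- 5hmC in 99.55% and EB 5fC in 16.4%, the highest shares of the 20 chromosomes, and Tdg -/- p300 in 2.97%, the lowest share. These traits were not particular to the class. Chromosome 11 also had the highest shares of Tdg -/- 5hmC and EB 5fC in kept-on-5hmC regions (99.8% and 28.3%) and in gained regions on p300 (99.2% and 37.45%), and the lowest share of Tdg -/- p300 in the second of these classes (51.4%). Chromosome 11 also held the most Tdg -/- 5fC regions of any chromosome, 10395, followed by chromosome 5 with 9448. Of all Tdg -/- 5fC regions on chromosome 11, 34.35% were gained-on-5hmC regions, the lowest such share of the 20 chromosomes. EB 5hmC, at 55.7%, was within the span of the other autosomes. The separation ran along the whole chromosome, with 62.0% to 79.9% in its 13 windows of 10 Mb. Of the 228 windows with at least 50 such 5hmC regions on other chromosomes 2 passed 62.0%, both near the start of chromosome 6, with 66.9% (81 of 121) at 0 to 10 Mb and 71.5% (103 of 144) at 20 to 30 Mb. The smaller window between them, at 10 to 20 Mb, had 72.7% (32 of 44), and the few other small windows above 62.0%, on chromosomes 12 and X, held at most 8 such 5hmC regions each. Without chromosome 11 the share over all chromosomes was 43.1%, against 44.5% with it. The shares of 5hmC regions with gained 5fC, by chromosome and by window, come from lists used for the selection and are descriptions. On X, EB 5hmC lay at 78.8% of its 193 gained-on-5hmC regions, the highest share of any chromosome. X also had the highest share in kept-on-5hmC regions (76.5%), though not in gained regions on p300 or in gained-off-5hmC regions.

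**Figure D5:**
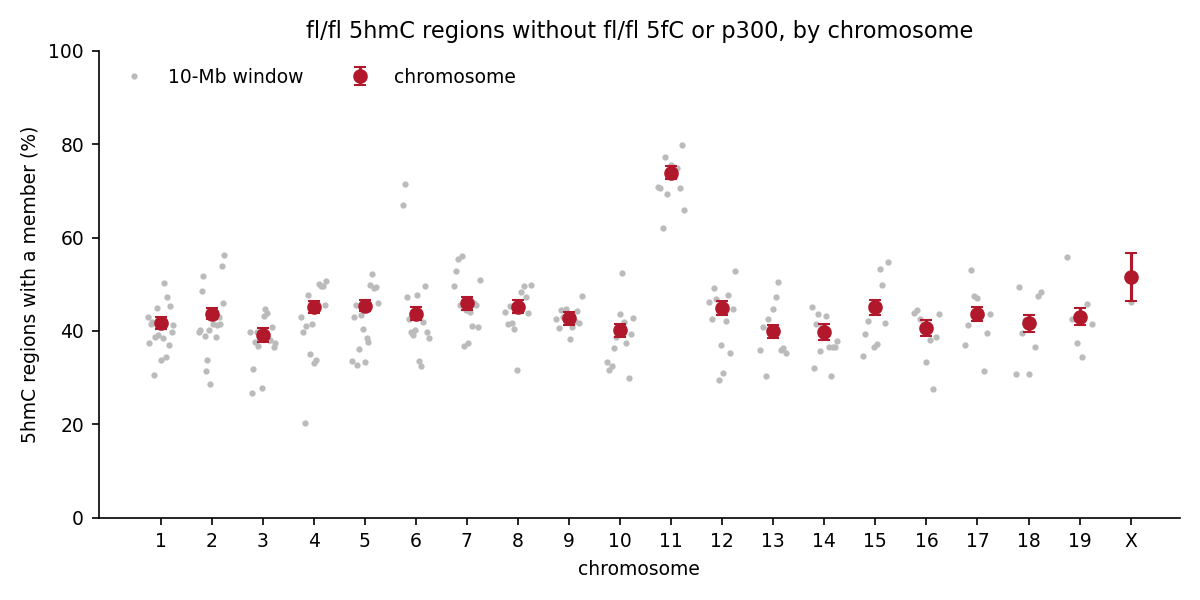
Share of fl/fl 5hmC regions with neither fl/fl 5fC nor p300 (vertical axis, percent) that held a gained-on-5hmC region, by chromosome (red, with Wilson 95% intervals) and in 10-Mb windows with at least 50 such 5hmC regions (grey). Every list behind these shares was used for the selection. Chromosome 11 lies at 73.9% with all 13 windows at or above 62.0%, and 2 windows of chromosome 6 reach that level.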

How the data were processed

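The region lists and their scores were deposited by the authors, 1 list per mark and group. The score is the negative log10 of a p-value times 10, per the file headers where a list has one. The p300 and EB lists have none, and their scores were taken to be of this kind. The submitters' processing notes name mm9, CASAVA 1.8.2, Bowtie 0.17.2 and MACS 1.4, and for the EB also Bowtie 0.12.9, Trimmomatic 0.20, Picard 1.82 and SAMtools. FPKM values, 1 per gene symbol and genotype, were deposited by the authors, with TopHat 1.4.1 and Cufflinks 1.3.0 in the submitters' processing notes. How replicates were combined, the threshold of the calls and whether starts count from 0 or 1 are not given in the sources used here. Sequence is not shown, since no genome of the files' build was used here.

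Regions on chromosomes 1 to 19 and X were overlapped by at least 1 bp with numpy 2.4.6 and pandas 2.3.3 in Python 3.11.15. The overlap code was tested on simulated data, and the member count was checked with bedtools 2.31.1. Classes were compared by their shares of regions, with Wilson 95% intervals, and by the number of chromosomes with the same sign. No test was run, since each group has 1 list. Weighted shares use 5 classes of score by 5 of width. Genes with at least 1 FPKM in either genotype counted as measured, changes are log2 values with 1 FPKM added, and 2-fold refers to those. The regions named are the 10 with the highest score, the 3 highest of 4 subsets (with Tdg -/- p300, with EB 5fC and 5hmC, without Tdg -/- 5hmC, in none of the 4 lists), the 3 5hmC regions with the most members, and regions just inside and outside the limits, of which some are printed. The members, lists and settings were chosen with earlier results of these data known. Plots were drawn with matplotlib 3.10.9. Libraries of input DNA, of the enrichment without NaBH4 and of H3K4me1 chromatin were not analysed here.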

Additional observations from a re-analysis of the deposited data

How the results depend on the processing

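No paired analysis was possible because each group has 1 pooled list, and for the same reason no replicate could be left out. Alternatives are compared with the values above, and a share counts as moved where it left its 95% interval. The comparison of 5hmC regions with and without gained 5fC, and its settings, were added after seeing the data. None of its 4 differences changed sign under any of the 8 settings. The number of gained-on-5hmC regions, 45263 above, lay between 30170 and 55247 under the 7 settings that made the selection anew. In what follows, differences are in percentage points.

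With only regions scoring at least 100 kept in every list, the selection was made anew. Weaker fl/fl 5fC and p300 regions then excluded nothing, so the class took in regions that were not members above. It held 30170 regions. Their shares were 96.9% for Tdg -/- 5hmC, 4.355% for Tdg -/- p300, 47.0% for EB 5hmC and 5.98% for EB 5fC. Differences to kept-on-5hmC regions in that order were -1.95, -0.784, -4.19 and -3.44, and between 5hmC regions with gained 5fC and those without 5fC 18.8, 2.07, 30.6 and 5.96. Signs turned for EB 5hmC against gained regions on p300 (4.04) and for EB 5fC against gained-off-5hmC regions (-0.495).

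Weighted to score and width, differences to kept-on-5hmC regions were -0.576 for Tdg -/- 5hmC and -0.0249 for Tdg -/- p300, and the sign turned for EB 5hmC (5.98) and EB 5fC (1.79). It also turned for EB 5fC against gained-off-5hmC regions (-5.75). Between the 5hmC regions the weighted differences were 11.9 for Tdg -/- 5hmC, 3.00 for Tdg -/- p300 and 30.5 for EB 5hmC.

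With 60.92 as the minimum of every 5fC list, shares were 96.6% for Tdg -/- 5hmC, 7.145% for Tdg -/- p300, 58.55% for EB 5hmC and 9.94% for EB 5fC. Differences to kept-on-5hmC regions were -2.17 for Tdg -/- 5hmC, -3.95 for EB 5hmC and -6.15 for EB 5fC, and between 5hmC regions 23.3 for Tdg -/- 5hmC and 9.60 for EB 5fC.

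With the centre of the region required inside the other list, shares were 5.40% for Tdg -/- p300, 55.5% for EB 5hmC and 11.6% for EB 5fC. Differences to kept-on-5hmC regions were -1.36 for Tdg -/- p300, -6.42 for EB 5hmC and -6.74 for EB 5fC, and between 5hmC regions 2.44 for Tdg -/- p300 and 9.48 for EB 5fC. With at least 0.5 of the region covered, shares were 96.2% for Tdg -/- 5hmC, 5.25% for Tdg -/- p300 and 11.4% for EB 5fC. Differences to kept-on-5hmC regions were then -2.08, -0.747 and -4.90 in that order, and between 5hmC regions 25.0, 1.97 and 7.94.

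Merging regions closer than 1 kb gave shares of 95.5% for Tdg -/- 5hmC, 61.1% for EB 5hmC and 13.7% for EB 5fC. Differences to kept-on-5hmC regions were -3.165 for Tdg -/- 5hmC, -4.27 for Tdg -/- p300, -6.725 for EB 5hmC and -11.0 for EB 5fC, and between 5hmC regions 26.2 for Tdg -/- 5hmC, 37.4 for EB 5hmC and 12.6 for EB 5fC. With no fl/fl 5fC or p300 within 1 kb, shares were 95.6% for Tdg -/- 5hmC, 5.63% for Tdg -/- p300 and 58.3% for EB 5hmC. Differences to kept-on-5hmC regions were -2.93, -3.645 and -3.17 in that order, and between 5hmC regions 25.1, 3.598 and 35.3. Without chromosome 11, shares were 95.5% for Tdg -/- 5hmC, 7.045% for Tdg -/- p300 and 12.1% for EB 5fC, the difference to kept-on-5hmC regions was -2.93 for Tdg -/- 5hmC, and that between 5hmC regions 11.5 for EB 5fC. The cause of each move was not tested, apart from what each setting leaves out.

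Depth is unknown for every list, so absence from a list says only that no region was called there.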
